A study of Mus musculus with 3 samples.

Results

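The aminoacyl-tRNA synthetases are the enzymes that load amino acids onto tRNA, and their transcripts are described here in oocytes from 8-week-old female mice of the outbred ICR strain. The 36 members were picked by gene name, 20 of the cytosolic set and 16 of the mitochondrial set, whose names end in 2, out of 23376 gene symbols with a row. All 36 had at least 1 row, and the rule uses names only, though earlier results of these data were known when the members were listed. Total RNA was sequenced in 3 libraries: 1 from unexposed animals (control), 1 after low dose and 1 after high dose PCB118, a dioxin-like polychlorinated biphenyl. By its title the series asks how exposure in pregnancy acts on oocytes of the offspring. The labels state neither dose as an amount, nor how many animals or oocytes a library holds. A group of 1 library gives no replicate check, so no p-value is given and each difference describes these libraries alone. In such bulk RNA, fewer cells of a type and less RNA per cell cannot be told apart.

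Each synthetase joins 1 kind of amino acid to its tRNAs at the cost of ATP, and the charged tRNA carries the residue to the ribosome. Animal cells hold a set of these enzymes in the cytosol and another, also encoded in the nucleus, in mitochondria, where it serves translation of the proteins encoded by mitochondrial DNA. The enzymes fall into class I or class II by the fold of the catalytic domain, and several cytosolic ones sit in a multisynthetase complex held together by Aimp1, Aimp2 and Eef1e1. Gars and Kars each serve both compartments from a single gene. Many cytosolic synthetase genes are known targets of ATF4, a transcription factor made when amino acids run short, which binds the C/EBP-ATF response element. An oocyte stores the mRNA and translation machinery that the early embryo uses before its own genome is transcribed.

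The promoter windows that hold the letters of this element are shown first, because Atf4 itself is among the genes that differed between libraries further on. RefSeq windows of 250 bases before to 50 bases after a gene's start (GRCm38.p6) matched 12 of the 20 cytosolic and 14 of the 16 mitochondrial genes by symbol. The letters TGATGNAA, searched on both strands as the sole motif, occurred in 5 of the 12 cytosolic genes (41.7%) and in 0 of the 14 mitochondrial genes. Of all 27025 symbols with a window, 1219 held them (4.51%). In the 5 windows that follow, printed 5′ to 3′ along the gene's own strand, capitals mark the match, which is on the gene's own strand in Yars and reads as the reverse complement in the other 4 genes.
Aars promoter: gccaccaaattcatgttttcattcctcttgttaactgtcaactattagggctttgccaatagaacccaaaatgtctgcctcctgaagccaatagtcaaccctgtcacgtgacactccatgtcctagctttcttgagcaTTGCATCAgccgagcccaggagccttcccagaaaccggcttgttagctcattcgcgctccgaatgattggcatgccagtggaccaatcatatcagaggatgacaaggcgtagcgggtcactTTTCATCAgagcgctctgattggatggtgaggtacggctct
Gars promoter: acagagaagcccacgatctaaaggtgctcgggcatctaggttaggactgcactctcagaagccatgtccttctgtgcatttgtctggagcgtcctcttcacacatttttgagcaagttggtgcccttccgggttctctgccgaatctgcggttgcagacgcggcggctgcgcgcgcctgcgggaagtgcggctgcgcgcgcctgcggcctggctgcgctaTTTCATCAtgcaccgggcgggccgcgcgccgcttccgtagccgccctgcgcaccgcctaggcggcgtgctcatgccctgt
Iars promoter: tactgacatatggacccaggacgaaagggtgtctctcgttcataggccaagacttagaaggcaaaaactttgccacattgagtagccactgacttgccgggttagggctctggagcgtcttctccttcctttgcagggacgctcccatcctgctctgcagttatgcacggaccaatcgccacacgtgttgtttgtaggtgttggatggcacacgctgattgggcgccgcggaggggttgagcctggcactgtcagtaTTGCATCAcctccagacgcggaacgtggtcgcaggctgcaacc
Tars promoter: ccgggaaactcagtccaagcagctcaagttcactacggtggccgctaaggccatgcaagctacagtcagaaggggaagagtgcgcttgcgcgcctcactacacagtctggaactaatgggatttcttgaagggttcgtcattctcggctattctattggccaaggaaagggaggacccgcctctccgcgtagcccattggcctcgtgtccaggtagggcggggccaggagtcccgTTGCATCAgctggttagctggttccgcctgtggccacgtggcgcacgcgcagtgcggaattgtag
Yars promoter: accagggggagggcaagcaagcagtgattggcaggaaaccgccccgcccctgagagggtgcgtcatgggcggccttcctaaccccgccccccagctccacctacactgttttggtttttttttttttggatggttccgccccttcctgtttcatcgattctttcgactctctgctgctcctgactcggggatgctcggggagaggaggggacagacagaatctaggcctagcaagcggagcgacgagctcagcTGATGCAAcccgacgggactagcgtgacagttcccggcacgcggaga
The window of Aars, the alanine enzyme, lies at chr8:111033592-111033891 on the plus strand and holds 2 matches. Of these, 1 starts 112 bases before the RefSeq start and 1 starts 10 bases after it. In GENCODE M21, the annotation used further on, Aars begins at 111033144, so the whole window lies inside that gene. In Gars, the glycine enzyme (chr6:55037751-55038050, plus strand), the match starts 30 bases before the start of the gene. In Tars, the threonine enzyme (chr15:11399609-11399908, minus strand), it starts 15 bases before. In Iars, the isoleucine enzyme (chr13:49681880-49682179, plus strand), it starts 8 bases after, and in Yars, the tyrosine enzyme (chr4:129189653-129189952, plus strand), 4 bases after. All starts here are those of RefSeq, and distances after a start count the start itself as base 1. A match of letters describes the window and does not show binding.

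Values were FPKM, that is fragments normalised to transcript length and library size, so that levels can be set side by side between genes. The spacing of the lowest values put the number of reads near 34700000 for control, 27900000 for low dose and 31500000 for high dose. Of 12 oocyte markers 11 had a row, all at 1 FPKM or more in each library, and they summed to 8474, 6871 and 8129 FPKM for control, low dose and high dose, mostly Dppa3. Among them Gdf9 was at 661, 38.5 and 193 FPKM and Bmp15 at 4.27, 18.7 and 15.8 FPKM. The oocyte marker without a row was Ddx4. The granulosa and cumulus list (8 of 12 with a row) summed to 7.70, 14.2 and 13.4 FPKM, most of it Fshr. The theca and stroma list (7 of 9 with a row) summed to 3.87, 7.83 and 0.85 FPKM, chiefly Cyp11a1, while the collagen genes Col1a1, Col1a2 and Col3a1 were at or near 0. Of the 7 blood and immune markers 1 had a row, at 0.95, 0.69 and 0.78 FPKM. The part of such cells in any result was not tested. In any of these lists, a marker without a row does not show that its transcript was absent.

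The cytosolic set spanned values from near 0 to 87.1 FPKM. Of its 20 genes 18 averaged 1 FPKM or more, the level from which a gene counts as expressed here. Nars, the asparagine enzyme, stood first in each library, with 57.8 FPKM in control, 87.1 FPKM at low dose and 65.7 FPKM at high dose. The Nars gene, ENSMUSG00000024587, lies on chromosome 18 (64499647 to 64516652, minus strand, GENCODE M21; GRCm38 is mm10). Nars alone made up 26.9% of the cytosolic sum in control, 33.7% at low dose and 30.7% at high dose. Its mean stood at percentile 93.0 of the 12151 expressed genes.

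Rars, Iars, Farsb and Qars followed, and the order among the first 3 of these changed with the library. Rars, the arginine enzyme, was at 23.3, 26.6 and 27.5 FPKM in control, low dose and high dose. Iars was at 21.5, 27.5 and 18.9 FPKM. Farsb, the beta subunit of the phenylalanine enzyme, was at 22.0, 20.6 and 21.2 FPKM, within the range that Iars covered. Qars, the glutamine enzyme, was below these 3 in every library, at 17.2, 16.2 and 13.6 FPKM. The place of Iars rests on summing its 3 rows. Its largest row alone, at 11.3, 15.3 and 13.0 FPKM, was below Qars in every library.

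Another group of genes occupied the middle, between 5.15 and 11.3 FPKM in every library. Gars was at 9.33, 10.9 and 8.33 FPKM, Lars, the leucine enzyme, at 8.24, 11.3 and 7.84 FPKM, and Dars, the aspartate enzyme, at 7.25, 9.56 and 11.02 FPKM. The order of these 3 neighbours changed between libraries. The Dars values sum 3 rows, and the row largest in control was at 6.45, 3.24 and 5.90 FPKM alone. Tars was at 8.50, 7.03 and 6.89 FPKM, Sars, the serine enzyme, at 8.10, 8.16 and 6.15 FPKM, and Wars, the tryptophan enzyme, at 6.70, 5.15 and 5.42 FPKM.

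Farsa, the alpha subunit that joins Farsb in 1 enzyme, was at 4.21, 3.80 and 3.45 FPKM and lay well below Farsb in all 3 libraries. Eprs, a fused enzyme for both glutamate and proline, was at 4.47, 4.48 and 3.75 FPKM. Kars, the lysine enzyme, was at 5.22, 5.96 and 3.51 FPKM. The lowest of the expressed cytosolic genes were Hars (histidine), Cars (cysteine), Aars and Mars (methionine), all between 1.96 and 3.94 FPKM.

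Among rows with a gene name, Vars and Yars were far below the other 18. Rows without a gene name were left out, and whether any of them hold reads of Vars or Yars was not tested. The valine enzyme Vars was at 0.17, 0.26 and 0.087 FPKM in control, low dose and high dose, and Yars at 0.042, 0.091 and 0.040 FPKM. Over the longest annotated transcript these levels come to about 25, 30 and 11 reads for Vars and about 4, 7 and 4 reads for Yars. Each has a single row in the tables. Exons of Yars overlap exons of C77080 on the other strand in GENCODE M21, and whether strand was used in counting is not given in the labels.

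**Figure D1:**
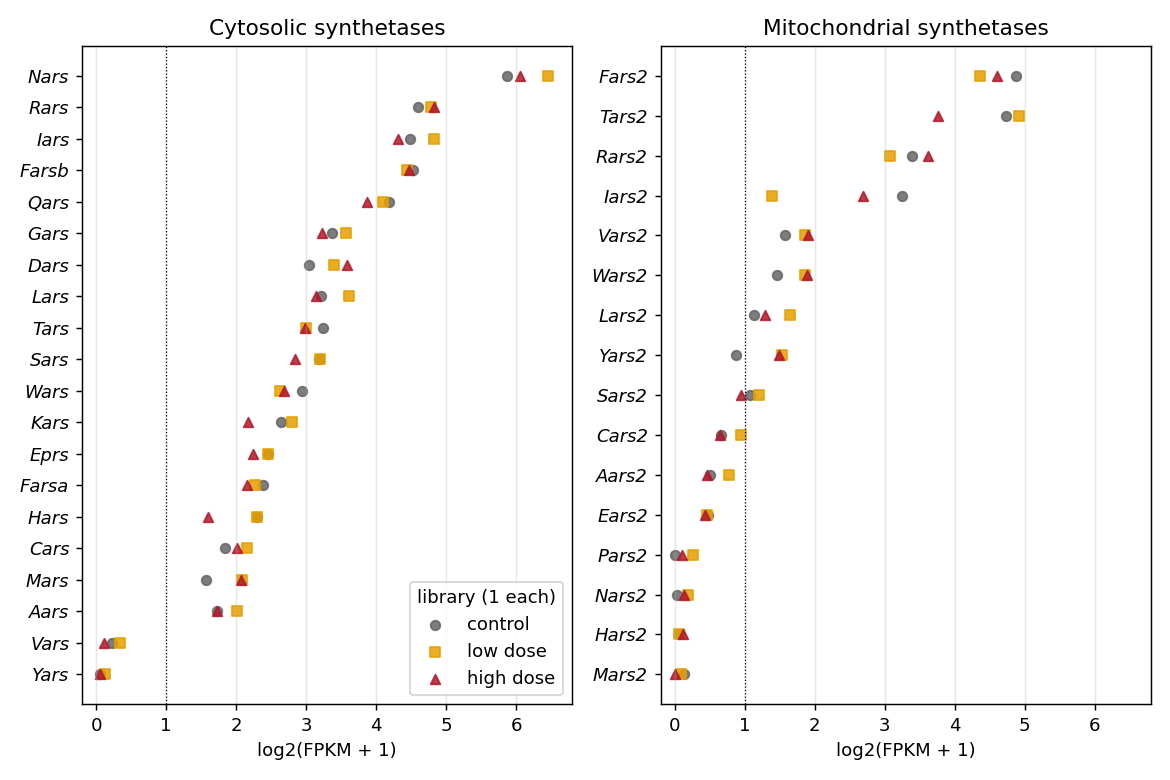
Levels of the 20 cytosolic (left) and 16 mitochondrial (right) synthetase genes as log2(FPKM + 1), with 1 point per library and genes ordered by their mean. The dotted line marks 1 FPKM; Nars stands first among the cytosolic genes in all 3 libraries, and 7 mitochondrial genes have a mean under 1 FPKM.

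The mitochondrial set was carried by few genes. Of its 16 genes 9 were expressed, and the 4 most abundant held 89.5% of the summed FPKM in control, 83.0% at low dose and 82.4% at high dose. In the cytosolic set the top 4 held 58.0, 62.6 and 62.3%. The phenylalanine enzyme Fars2 was at 28.4, 19.6 and 23.4 FPKM, the threonine enzyme Tars2 at 25.7, 29.2 and 12.6 FPKM, and these were the first and second genes of the set in every library. Fars2 led in control and at high dose and Tars2 at low dose. Rars2, the arginine enzyme, was at 9.50, 7.47 and 11.3 FPKM. Iars2, the isoleucine enzyme, was at 8.47, 1.61 and 5.49 FPKM, rank 4 of the set in control and at high dose and rank 8 at low dose.

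The remaining expressed mitochondrial genes lay between 0.83 and 2.75 FPKM. Vars2 (valine) was at 1.99, 2.63 and 2.75 FPKM, Wars2 (tryptophan) at 1.75, 2.63 and 2.72 FPKM, and Lars2 (leucine) at 1.21, 2.13 and 1.44 FPKM. Yars2 (tyrosine) was at 0.83, 1.91 and 1.82 FPKM, and Sars2 (serine) at 1.11, 1.30 and 0.93 FPKM. Neighbours in this group changed places between libraries.

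The other 7 had means below 1 FPKM. Cars2 (cysteine) was at 0.58, 0.94 and 0.57 FPKM, Aars2 (alanine) at 0.42, 0.72 and 0.38 FPKM, and Ears2 (glutamate) at 0.39, 0.38 and 0.35 FPKM. Pars2, the proline enzyme, was at 0.0027, 0.20 and 0.073 FPKM, and Nars2, the asparagine enzyme, at 0.021, 0.14 and 0.094 FPKM, which comes to about 3, 15 and 11 reads for Nars2. Hars2, the histidine enzyme, was at 0.045, 0.049 and 0.083 FPKM, and its exons overlap those of Hars on the other strand. Mars2, the methionine enzyme, was at 0.099 FPKM in control and 0.062 FPKM at low dose and was listed at 0 at high dose.

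For 13 amino acids the members include a mitochondrial and a cytosolic gene of the same letter. The mitochondrial gene was the lower of the pair in all 3 libraries for 10 of them, and the higher in all 3 for Tars2, Vars2 and Yars2. The asparagine pair was the widest apart on the log2(FPKM + 1) scale, with Nars2 minus Nars at -5.85 in control, -6.27 at low dose and -5.93 at high dose. Tars2 lay above Tars by 1.49, 1.91 and 0.78. The differences of Vars2 from Vars (1.35, 1.52 and 1.79) and of Yars2 from Yars (0.81, 1.42 and 1.44) rest on cytosolic values near 0. Fars2 lay close to Farsb (0.36, -0.07 and 0.13) and above Farsa (2.50, 2.10 and 2.45).

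**Figure D2:**
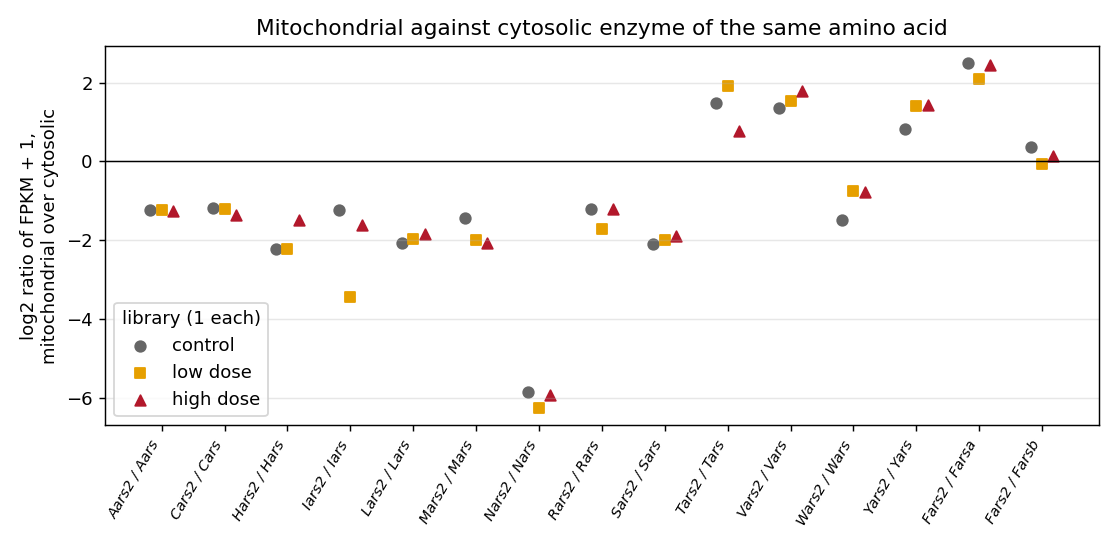
Log2 ratio of FPKM + 1 of the mitochondrial over the cytosolic gene of the same amino acid, with 1 point per library. Points above 0 mean a higher mitochondrial level; Tars2, Vars2 and Yars2 lie above 0 in every library, and Nars2 lies near -6.

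The low dose library was set against control to ask which synthetase transcripts differed at the smaller exposure. Ratios were taken as log2(FPKM + 1), which understates the change of low genes, and a ratio of 1 or more in size, a 2-fold difference, made a call. Of the 18 expressed cytosolic genes 0 were called higher and 0 lower, where 14.5% of all expressed genes were called higher and 5.84% lower. The cytosolic ratios ran from -0.32 to 0.58, with a median of 0.17, and the median of all expressed genes was 0.17 too. After trimmed mean scaling the cytosolic median was -0.07 and that of all genes -0.04, so its sign depends on the scaling. Scaling also moved the calls over all genes, with 1766 higher and 710 lower as deposited and 1291 higher and 1001 lower when scaled.

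Nars had the most positive cytosolic ratio at low dose, 0.58, at 87.1 FPKM against 57.8 FPKM in control. Mars was next, at 3.24 against 1.96 FPKM (0.52). At the other end stood Wars, at 5.15 against 6.70 FPKM (-0.32), and Tars, at 7.03 against 8.50 FPKM (-0.24). These 4 ratios are all under the rule. Exons of Mars overlap exons of the stress factor gene Ddit3 on the other strand, and Ddit3 was at 10.6 FPKM at low dose against 57.8 FPKM in control.

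Of the 9 expressed mitochondrial genes 1 was called lower at low dose and 0 higher, beside 5.84% and 14.5% of all expressed genes. The gene called was Iars2 (ENSMUSG00000026618, chromosome 1, 185284726 to 185329396, minus strand), at 1.61 FPKM against 8.47 FPKM in control, a log2 ratio of -1.86. The tables carry Iars2 in 3 rows, and these did not move alike. The largest was listed at 0 at low dose, against 7.62 FPKM in control, and another was at 1.58 FPKM at low dose, against 0.81 FPKM in control. Without rows that are at 0 in any library the ratio was 0.49, so the call ended and the sign turned. Iars2 exons overlap exons of Rab3gap2 and 2010103J01Rik on the other strand.

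The other 8 expressed mitochondrial genes were within the rule. Yars2 was at 1.91 FPKM at low dose against 0.83 FPKM in control (0.67), and with a pseudocount of 0.1 FPKM in place of 1 its ratio was 1.11, past the rule. Lars2 was at 2.13 against 1.21 FPKM (0.50), and Wars2 at 2.63 against 1.75 FPKM (0.40). One of the 3 rows of Wars2 was at 1.35 FPKM at low dose and listed at 0 in control, and without such rows its ratio was -0.27, while its largest row alone gave -0.02. Fars2, whose exons overlap those of Lyrm4 and Nrn1 on the other strand, was at 19.6 against 28.4 FPKM (-0.51). The median of the 9 ratios was 0.18, or -0.02 after trimmed mean scaling.

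**Figure D3:**
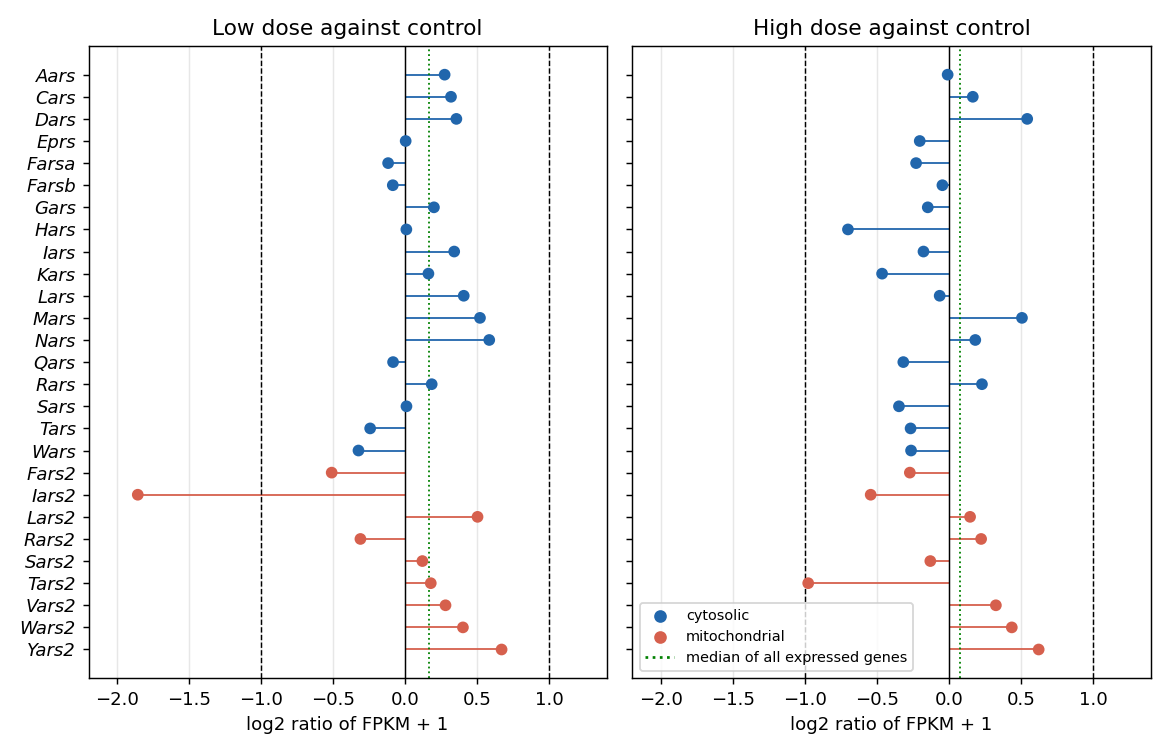
Log2 ratios of FPKM + 1 to control at the low dose (left) and the high dose (right) for the 18 cytosolic and 9 mitochondrial expressed genes. Dashed lines mark the 2-fold rule and the dotted line the median of all expressed genes; Iars2 at the low dose is the 1 point past the rule, and Tars2 at the high dose lies at -0.98.

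The high dose library was compared with the same control library, so the 2 comparisons share their denominator and a gene's pair of values is no independent repetition. Again 0 of 18 cytosolic genes were called higher and 0 lower, beside 9.51% and 5.18% of all expressed genes. The cytosolic ratios ran from -0.70 to 0.54, and 13 of the 18 were below 0. Their median was -0.16, or -0.28 after trimmed mean scaling, where that of all expressed genes was 0.08, or -0.02 scaled.

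Hars had the most negative cytosolic ratio at high dose, at 2.02 FPKM against 3.91 FPKM in control (-0.70), and Kars followed, at 3.51 against 5.22 FPKM (-0.47). Exons of Hars overlap exons of Hars2 on the other strand. On the positive side stood Dars, at 11.02 against 7.25 FPKM (0.54), and Mars, at 3.21 against 1.96 FPKM (0.51). None of the 4 passed the rule.

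Dars is carried in 3 rows that did not move alike. At low dose the sum gave a ratio of 0.36, but the row that was largest in control was at 3.24 FPKM against 6.45 FPKM and alone gave -0.81. That row was at 5.90 FPKM at high dose, a ratio of -0.11 to control where the sum gave 0.54. A second row was at 2.71 against 0.026 FPKM, and the remaining one at 2.42 against 0.77 FPKM. Iars also has 3 rows, of which 1 was at 1.87 FPKM at low dose and listed at 0 in the other libraries. Of its main rows, 1 was at 13.0 FPKM at high dose against 11.3 FPKM in control and the other at 5.92 against 10.2 FPKM, so that its ratio was -0.18 from the sum and 0.18 from the largest row.

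No expressed mitochondrial gene passed the rule at high dose, beside 9.51% of all expressed genes called higher and 5.18% lower. Tars2 (ENSMUSG00000028107, chromosome 3, 95739976 to 95760206, minus strand) came nearest, at 12.6 FPKM against 25.7 FPKM in control, a log2 ratio of -0.98. Its main row alone gave -1.002, at 12.1 against 25.2 FPKM, and trimmed mean scaling gave -1.10, both past the rule. Its other row was at 0.49 FPKM at high dose and 0.54 FPKM in control. Iars2 was at 5.49 against 8.47 FPKM (-0.54), or 0.07 without rows at 0. Yars2, at 1.82 against 0.83 FPKM (0.62), and Wars2, at 2.72 against 1.75 FPKM (0.44), had the most positive ratios. The median over the 9 genes was 0.15, where that of all expressed genes was 0.08, and its sign turned with a filter at a mean of 5 FPKM (-0.41).

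**Figure D4:**
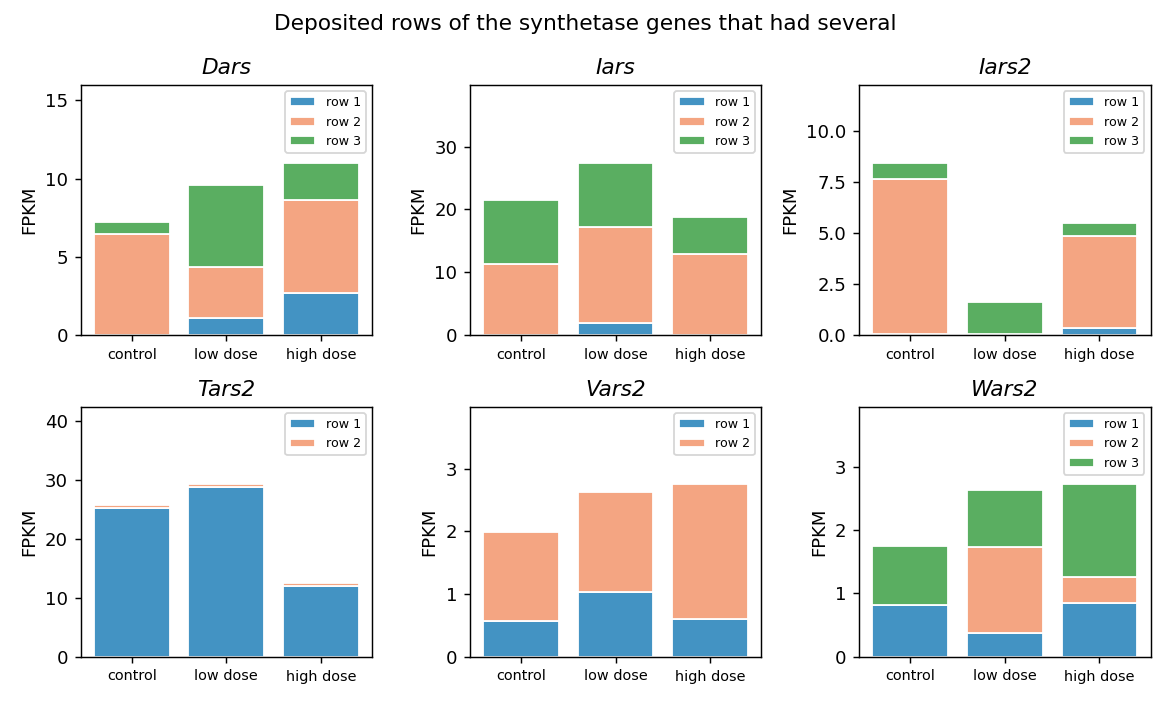
FPKM of each deposited row, stacked, for the 6 synthetase genes that had several rows, with rows numbered in order of their identifiers within each gene. The second row of Iars2 is at 7.62 FPKM in control, 0 at low dose and 4.55 FPKM at high dose, and almost all of Tars2 is in 1 row.

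High dose was then set against low dose. Of the 18 cytosolic genes 0 were called in either direction, beside 6.10% of all expressed genes called higher and 9.73% lower. Hars was at 2.02 FPKM at high dose against 3.94 FPKM at low dose (-0.71), and Kars at 3.51 against 5.96 FPKM (-0.63). The most positive ratios were those of Dars (0.19) and Wars (0.06). The median was -0.22, or -0.10 after trimmed mean scaling, where that of all expressed genes was -0.07, or 0.04 scaled.

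In the mitochondrial set 1 gene was called higher and 1 lower in this comparison, beside 6.10% and 9.73% of all expressed genes. Tars2 was called lower, at 12.6 FPKM at high dose against 29.2 FPKM at low dose (-1.16), and its ratio stayed between -1.02 and -1.21 under the other settings tried. Iars2 was called higher, at 5.49 against 1.61 FPKM (1.31), and that call rests on the row listed at 0 at low dose: without such rows the ratio was -0.43. Rars2 was at 11.3 against 7.47 FPKM (0.53), and Lars2 at 1.44 against 2.13 FPKM (-0.36), both within the rule.

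The spread of a gene over the 3 libraries was described by the range of log2(FPKM + 1). Its median was 0.34 for the 18 cytosolic genes, 0.51 for the 9 mitochondrial genes and 0.64 for the 12151 expressed genes. Farsb was the steadiest cytosolic gene, its highest FPKM being 1.06 times its lowest, and Hars the least steady at 1.95 times. Among the mitochondrial genes the highest over the lowest was 1.38 times for Vars2 and 5.25 times for Iars2.

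Ratios moved with transcript length over all genes. In 5 length classes of equal size the median ratio of low dose to control was -0.02 in the shortest class and 0.38 in the longest, and that of high dose to control was -0.03 in the shortest and 0.22 in the longest. The 27 expressed synthetase genes fell 0, 6, 10, 8 and 3 into these classes from short to long. With the median of its own length class subtracted, the cytosolic median was -0.0012 at low dose and -0.28 at high dose.

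Within the synthetases, the structural groups were set side by side. The 8 members of the multisynthetase complex had a median ratio of 0.26 at low dose and -0.12 at high dose. The 14 expressed class I genes, with Eprs counted here, had medians of 0.30 at low dose and 0.16 at high dose. The 13 class II genes had medians of 0.12 and -0.23, and 11 of the 13 ratios were below 0 at high dose. Among them the most negative were Tars2, Hars and Kars, while Iars2, of class I, was at -0.54. The median of all expressed genes was 0.17 at low dose and 0.08 at high dose, where 5344 of 12151 ratios were below 0. The medians of these groups were not taken under other scalings or the length correction, and a difference between the classes was not tested.

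The scaffold proteins of the complex were listed with the synthetases they hold. Eef1e1 was at 50.9, 39.7 and 45.1 FPKM in control, low dose and high dose, Aimp2 at 26.8, 22.6 and 13.7 FPKM, and Aimp1 at 9.98, 9.97 and 8.49 FPKM. None of the 3 was called, where 20.4% of all expressed genes were at low dose and 14.7% at high dose against control. The ratio of Aimp2 at high dose was -0.92 as deposited and -1.04, past the rule, after trimmed mean scaling.

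Enzymes that act on charged or immature tRNA lay within the rule as deposited. Prorsd1, a homologue of a proofreading domain of bacterial proline enzymes, was at 5.50, 6.70 and 5.87 FPKM, and the deacylase Dtd2 at 4.74, 4.79 and 3.51 FPKM. Mtfmt, which formylates the initiator methionyl-tRNA of mitochondria, was at 4.11, 4.01 and 3.25 FPKM, and Gatb, a subunit of the enzyme that completes mitochondrial glutaminyl-tRNA, at 0.84, 0.87 and 0.31 FPKM. Of 7 expressed genes of tRNA maturation and export 0 were called at either dose, where 20.4% of all expressed genes were at low dose and 14.7% at high dose. Near the rule were Rtcb, the tRNA ligase, with ratios of -0.80 at low dose (-1.01 after trimmed mean scaling) and -0.88 at high dose (-1.02 with a pseudocount of 0.1 FPKM), and Tsen15, a tRNA splicing subunit, with 0.81 at low dose (1.26 with that pseudocount) and 0.76 at high dose (1.19). The 2 most abundant were Trnt1, which adds the CCA end, at 22.9, 18.9 and 19.5 FPKM, and Hsd17b10, a subunit of mitochondrial RNase P, at 18.5, 15.6 and 26.7 FPKM.

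Selenocysteine is built on a tRNA that Sars has charged with serine. Of the 6 genes of this route, all expressed, 1 was called higher and 1 lower at low dose, and 1 higher and 0 lower at high dose, beside the 14.5% higher and 5.84% lower of all expressed genes at low dose and 9.51% and 5.18% at high dose. Sephs2, which makes the selenium donor, was at 41.5, 109 and 123 FPKM in control, low dose and high dose, and was called higher at low dose (1.37) and high dose (1.54). Eefsec, the elongation factor for selenocysteinyl-tRNA, was at 9.62, 3.93 and 8.93 FPKM and was called lower at low dose (-1.11). Sepsecs, the synthase of the route, was at 12.6, 11.2 and 10.9 FPKM. The ratio of Sars itself was 0.01 at low dose and -0.35 at high dose.

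Elongation factors take the charged tRNA onward or move the ribosome along the mRNA. They were listed together with their exchange factors and a related mitochondrial factor, Gfm2. Of these 9 genes 1 was called at low dose and 0 at high dose, where 20.4% and 14.7% of all expressed genes were. Eef1a1, which delivers charged tRNA to the ribosome, was at 175, 249.9 and 221.7 FPKM, and Eef1d, a subunit of its exchange factor, at 41.4, 39.7 and 32.8 FPKM. The translocation factor Eef2 was at 9.19, 20.4 and 14.6 FPKM and was called higher at low dose (1.07). That ratio was 0.81 after trimmed mean scaling and 0.90 with the median of all expressed genes set to 0, both under the rule. Other settings took 2 mitochondrial factors, Gfm2 and Tufm, past the rule. Gfm2, at 17.8, 33.4 and 19.1 FPKM over 3 rows, gave 0.87 at low dose and 0.10 at high dose from the sum. The row with its largest mean, at 5.34, 29.8 and 17.3 FPKM, alone gave 2.28 and 1.53. The row largest in control moved the other way, at 11.2, 1.89 and 0.44 FPKM in control, low dose and high dose. Tufm, at 1.79, 3.04 and 4.44 FPKM, gave 0.96 at high dose and 1.11 with a pseudocount of 0.5 FPKM.

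Of 9 expressed genes of the amino acid response, 1 was called higher and 1 lower at low dose, and 0 higher and 1 lower at high dose, beside 20.4% of all expressed genes called in either direction at low dose and 14.7% at high dose. Atf4 was at 21.05 FPKM in control, 31.5 FPKM at low dose and 5.64 FPKM at high dose, and was called lower at high dose (-1.73). Ddit3 was at 57.8, 10.6 and 39.3 FPKM and was called lower at low dose (-2.35). Slc7a11, a cystine transporter, was at 6.05, 14.4 and 12.5 FPKM over 5 rows and was called higher at low dose (1.13), a call that ended after trimmed mean scaling (0.89) and with its largest row alone (0.15). The folate enzyme Mthfd2 was at 22.3, 22.1 and 20.6 FPKM. Shmt2, a mitochondrial enzyme of serine and glycine metabolism, was at 4.94, 2.04 and 2.09 FPKM, with ratios of -0.97 and -0.94 at low and high dose that were within the rule but past it with either smaller pseudocount and either scaling.

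Since 0 of the 18 expressed cytosolic genes were called in any comparison, those whose windows hold TGATGNAA were within the rule too. That holds with or without the letters and so has no bearing on them. A link to the values of Atf4 was not tested. At low dose the ratios to control were 0.27 for Aars, 0.20 for Gars, 0.34 for Iars and -0.24 for Tars. At high dose they were -0.01 for Aars, -0.15 for Gars, -0.18 for Iars and -0.27 for Tars. Yars, the other gene with a match, was near 0 FPKM in every library.

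**Figure D5:**
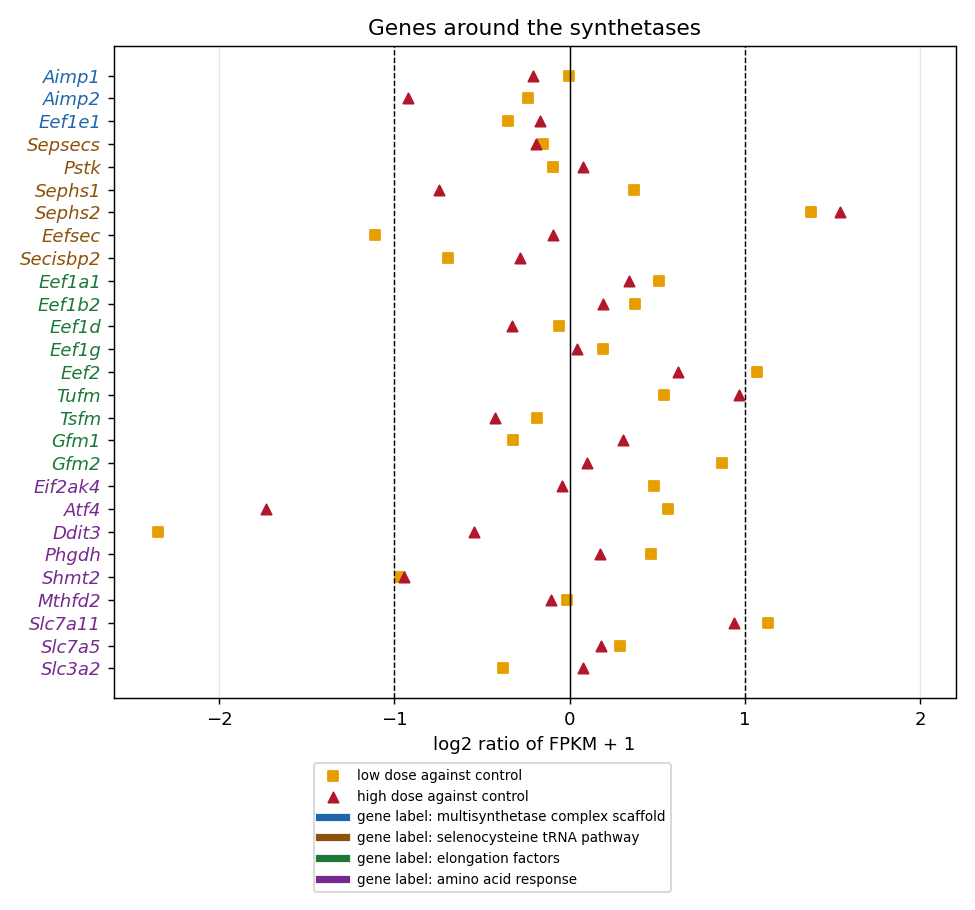
Log2 ratios of FPKM + 1 to control for expressed genes of 4 lists around the synthetases, with squares for the low dose and triangles for the high dose. Dashed lines mark the 2-fold rule; Sephs2 lies past it at both doses, Atf4 at the high dose and Ddit3 at the low dose.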

How the data were processed

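RNA was sequenced in 3 oocyte libraries, 1 per group, grouped by sample title. The authors deposited FPKM, named so per the file headers, 1 table a library, each row with an identifier, a gene name and its value. HISAT2, StringTie and mm10 are named in the submitters' processing notes, without versions. Annotation, trimming and strand setting: not given in the sources used here. Most rows are assembled loci without coordinates, so several rows can share a gene name.

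From these, rows were joined by identifier, 61 with differing names and 12426 without a name were left out, absent rows were taken as 0, and FPKM were summed per symbol (Python 3.11.15, pandas 2.3.3). All rows together held 377415 FPKM in control, 424756 at low dose and 393864 at high dose. The symbols kept held 318802, 331050 and 317503 FPKM, so the share left out was not the same in each library. Whether rows left out hold reads of any member was not tested. Expressed genes are those averaging 1 FPKM or more. A count test needs counts, which FPKM are not, and 1 library per group allows no other test. Positions, overlaps and lengths (longest transcript, 96.4% of expressed genes) came from GENCODE M21. The worth of 1 read was the densest 0.02 relative window of FPKM times length over genes with 1 row and 1 transcript (210 of 2010, 137 of 1367 and 174 of 1714 values below 0.2 in control, low dose and high dose). It bounds counting error only. The size rule and the scaling were run on simulated libraries that hold counting noise only. Those libraries hold no variation between animals, so they cannot show how often the rule calls unchanged genes with 1 library per group. Pseudocounts, filters, scalings, row choices, a length correction and a 1.5-fold rule were tried as alternatives. Members and lists were chosen with earlier results of these data known. Named genes are every member past the rule, the 2 largest ratios of a set in a direction where fewer than 2 passed, and, from each other list, genes past the rule against control and the 2 most abundant. Shmt2, Gfm2, Tufm, Rtcb, Tsen15, Gdf9 and Bmp15 were added after their values were seen.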

Additional observations from a re-analysis of the deposited data

How the results depend on the processing

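Other pseudocounts (0.1 and 0.5 FPKM), filters (none, or a mean of at least 5 FPKM), scalings (trimmed mean, or the median of expressed genes at 0), rows (the largest per gene, or those in all 3 tables), a correction for transcript length and a 1.5-fold rule were tried. Leaving out rows at 0 in any library was chosen after seeing the data. Under every setting that keeps the 2-fold rule 0 cytosolic genes were called in any of the 3 comparisons; the 1.5-fold rule called 1 lower at the high dose against control and 2 lower at the high dose against the low dose. In the mitochondrial set at the low dose, 1 gene was called higher with a pseudocount of 0.1 FPKM and with the 1.5-fold rule, and 0 lower without rows at 0. At the high dose against control, 1 was called lower with either pseudocount, either scaling, the largest row, the length correction and the 1.5-fold rule, and 1 higher with a pseudocount of 0.1 FPKM and the 1.5-fold rule. At the high dose against the low dose, 0 were called higher without rows at 0. Of the called members Iars2 turned direction without rows at 0, to 0.49 at the low dose against control and -0.43 at the high dose against the low dose, because its largest row is at 0 at the low dose. Over all ratios of expressed members, 37 values in 18 genes changed sign, 29 of them under the scalings or the length correction and 8 under a choice of rows.

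The cytosolic median was -0.067, 0.0068 and -0.0012 at the low dose against control with trimmed mean scaling, the median at 0 and the length correction, -0.28 and -0.28 at the high dose against control with trimmed mean scaling and the length correction, and -0.10 and -0.12 at the high dose against the low dose with the same settings. The mitochondrial median at the low dose was -0.41 with the 5 FPKM filter, -0.024 with trimmed mean scaling, 0.012 with the median at 0 and -0.030 with the length correction. At the high dose against control it was 0.021 without a filter, -0.41 with the 5 FPKM filter and 0.0022 with the length correction. At the high dose against the low dose it was -0.057 without a filter, 0.39 with the 5 FPKM filter, 0.24 with the largest row, 0.14 with the length correction and -0.047 without rows at 0. With the 5 FPKM filter few mitochondrial genes are left; the cause of the other shifts was not tested. No paired analysis was possible because each group holds 1 library, so that leaving a library out would also leave no group. Depth limits the genes below 1 FPKM, some of which rest on fewer than 20 reads.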
